A study of Homo sapiens with 6 samples.

Results

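The genes described here are 10 genes of the m6A pathway, chosen by symbol as writers (METTL3, METTL14, WTAP, VIRMA), readers (YTHDF1, YTHDF2, YTHDF3, YTHDC1) and erasers (FTO, ALKBH5). All 10 had a row among the 32862 genes of the table. m6A is a methyl group on internal adenosines of messenger RNA. A writer complex adds it while RNA is made, reader proteins bind it and steer splicing, translation and decay of the marked RNA, and erasers can remove it. In neurons and their precursors the mark is known for tuning the lifetime of RNAs during differentiation.

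Poly(A) RNA was sequenced from SH-SY5Y, a human neuroblastoma line, in 3 libraries labelled OTULIN KO and 3 libraries of WT cells. OTULIN, a deubiquitinase that cleaves linear ubiquitin chains, was disrupted in the first group with CRISPR-Cas9. Both groups were untreated, grown in medium with 10% serum, and carry the same batch label, 1. The labels say neither whether the KO cells are 1 clone nor whether replicates are separate cultures, so p-values measure the spread between these libraries only.

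Depth, genes detected and composition all set the KO libraries apart, and no result below can be given without them. They held 725827 to 862932 counts, against 61772795 to 64352333 in WT, and a count for 2306 to 2567 genes, against 27453 to 27958 in WT. Loci inside ribosomal RNA genes took 19.5% to 36.5% of the KO counts and 0.438% to 0.823% of the WT counts, and mitochondrial genes 0.00372% to 0.00452% of the KO and 8.41% to 8.70% of the WT counts. OTULIN itself was at 0 in each KO library and had 1682, 2101 and 2155 counts in WT. That does not check the labels, because 71.3% of the 10820 genes tested were at 0 in all KO libraries. Among markers of adrenergic neuroblastoma, the type of SH-SY5Y, HAND2 averaged 293 CPM (counts scaled to a library total of 1000000) in KO and 945 in WT and ISL1 104 CPM in KO and 318 in WT, while PHOX2A, GATA3, DBH, TH, CHGA and CHGB were at 0 in KO, and each of these had counts in every WT library. TH averaged only 1.79 CPM in WT, under the 3.48 to 4.13 CPM that 3 counts make in a KO library, so its 0 says little. Of 7 mesenchymal markers with a row, 4 were at 0 in KO, and the list summed to 16.5 to 56.8 CPM in the KO and 651 to 679 CPM in the WT libraries. Epithelial markers (1 of 5, KRT8, at 0 in KO; CDH1 at 5.51 CPM in KO and 0.641 in WT, KRT19 at 9.95 in KO and 4.10 in WT) summed to 4.94 to 29 CPM in the KO and 7.43 to 23.1 CPM in the WT libraries, blood and microglia markers (CD14, CSF1R and CD68 at 0 in KO) to 0 to 4.64 in KO and 1.41 to 1.62 in WT, and glia and endothelium markers (GFAP, AQP4 and VWF at 0 in KO) to 0 to 26.7 in KO and 0.109 to 1.41 in WT. KRT8, CD14, CSF1R, CD68, GFAP, AQP4 and VWF each averaged 2.0 CPM or less in WT, so their 0 in KO says little as well. The part of depth, composition and these markers in the results was not tested. In RNA from whole cultures, fewer cells that express a gene and less RNA per cell cannot be told apart.

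The 10 genes divided into those with 88 or more counts in each KO library and those nearly or wholly missing there. YTHDF3, YTHDF2, WTAP and YTHDC1 were higher in the KO libraries by 6.44-fold to 16.0-fold in CPM. METTL3, METTL14, YTHDF1, FTO and ALKBH5 were lower, and VIRMA did not pass the test. The split thus ran through the writer complex and through the YTHDF readers, while both erasers were lower. With edgeR's quasi-likelihood test over all genes, 4 of 10 were called higher at a Benjamini-Hochberg adjusted p under 0.05, against a background of 7.63% of the genes tested, and 5 of 10 lower, against 88.0%; calls in either direction made up 95.6% of the genes tested. Counts were present in every KO library for 5 of 10, against 13.9%, and 1 of 10 was at 0 in all of them, against 71.3%. The median log2 change over the 10 genes was -1.13, beside -12.42 over all genes tested, or -4.61 with genes at 0 in KO set to a limit of 3 counts in the 3 KO libraries together. All 10 passed the filter on low values, a mean of 1 FPKM (fragments per kilobase, scaled to mapped fragments) over the 6 libraries, and their WT values alone would have sufficed. The 5 lower genes passed only through WT. Folds below are ratios of mean CPM unless stated. Log2 changes are edgeR estimates with TMM factors unless another setting is named, so their size differs from that of the folds.

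**Figure D1:**
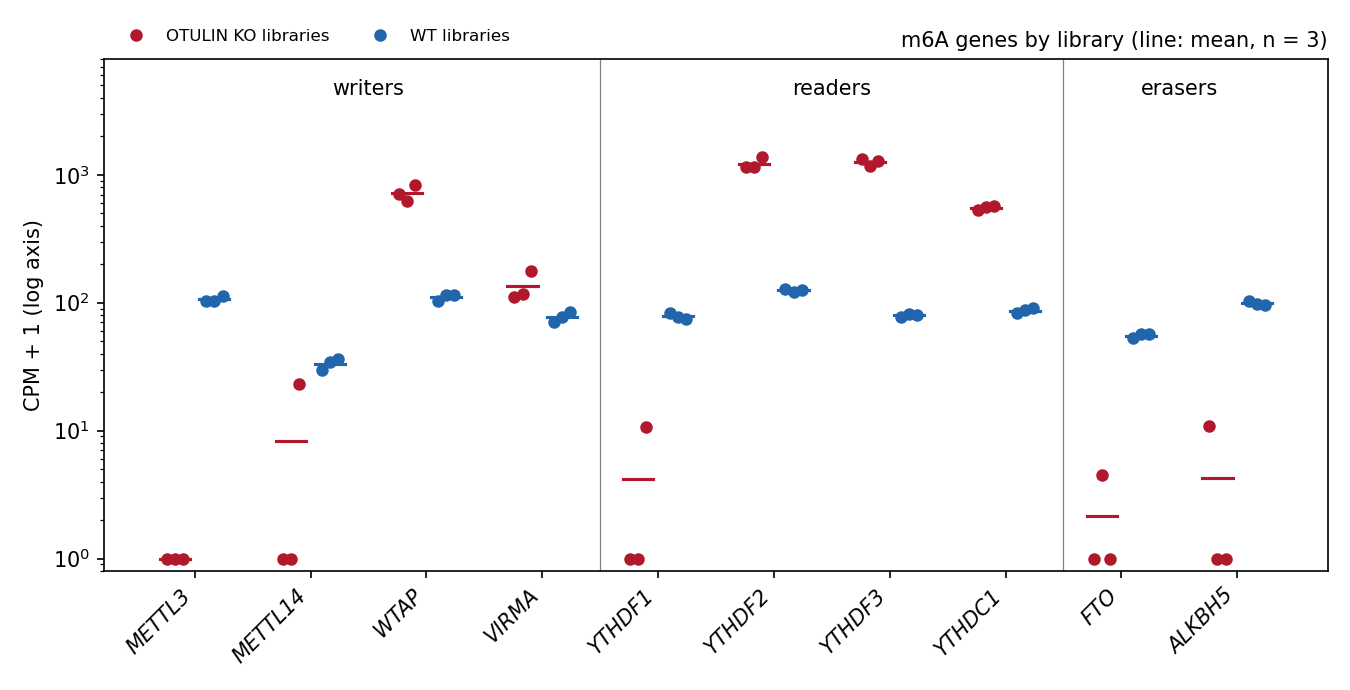
CPM + 1 on a log axis for the 10 genes in the 3 OTULIN KO libraries (red, left) and the 3 WT libraries (blue, right); each point is a library and each line a group mean. WTAP, VIRMA, YTHDF2, YTHDF3 and YTHDC1 lie above WT in each KO library, and METTL3 lies at 0 in each KO library; VIRMA turns to -0.16 (log2) under median-ratio scaling.

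Among the writers, METTL3 and METTL14 form the heterodimer that methylates RNA, with METTL3 as the catalytic subunit and METTL14 as the subunit that helps to hold the substrate. METTL3 (ENSG00000165819, hg38 chromosome 14, 21498133 to 21511342, minus strand) showed 0, 0 and 0 counts in KO, against 6321, 6589 and 6903 in the WT libraries. No KO library had a read of it. At its WT share of the counts, a KO library would have held 76.4 to 90.8 counts. METTL3 averaged 105 ± 5.6 CPM in WT (SD, n = 3) and was at least 84.1-fold lower in KO, taking the limit of 3 counts in the KO libraries together, 1.25 CPM (edgeR adjusted p = 1.2e-05). This was a common result at this level: of 2258 tested genes with a WT CPM within 1.5 times of that of METTL3, 62.8% were also at 0 in all KO libraries.

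METTL14 (ENSG00000145388, chromosome 4, 118685392 to 118715430, plus strand) showed 0, 0 and 16 counts in KO, against 1785, 2140 and 2175 in the WT libraries. Its KO reads all lay in KO replicate 3, where 22.0 CPM came close to the lowest WT library at 28.7 CPM without reaching it. METTL14 averaged 7.35 ± 13 CPM in KO and 32.4 ± 3.3 in WT (mean ± SD, 3 libraries each), 4.41-fold lower in CPM. With TMM factors its log2 change was -2.66 ± 0.75 (SE, adjusted p = 0.012 in edgeR). The value rests on that library: without KO replicate 3 the gene was at 0 in KO. The call held in 11 of 14 alternatives, with adjusted p from 6.4e-05 to 0.13. It was lost with DESeq2 (adjusted p = 0.093), with limma on log2(FPKM + 0.1) (adjusted p = 0.054) and with a replicate block in edgeR (adjusted p = 0.13). Of 2982 tested genes with a WT CPM within 1.5 times of that of METTL14, 80.1% were at 0 in all KO libraries.

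WTAP and VIRMA are the regulatory subunits: WTAP anchors the heterodimer in nuclear speckles, and VIRMA is the large scaffold that directs methylation towards the ends of messages. WTAP (ENSG00000146457, chromosome 6, 159725585 to 159756319, plus strand) showed 571, 536 and 597 counts in KO, against 6363, 7260 and 7036 in the WT libraries. In CPM these were 705, 621 and 823 in KO, against 102, 113 and 114 in WT. Every KO library was above every WT library. WTAP averaged 716 ± 101 CPM in KO and 109.7 ± 6.4 in WT (mean ± SD, 3 libraries each), 6.53-fold higher in CPM. With TMM factors its log2 change was 2.31 ± 0.11 (SE, adjusted p = 1.2e-05 in edgeR).

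VIRMA (ENSG00000164944, chromosome 8, 94487689 to 94553529, minus strand) showed 88, 100 and 128 counts in KO, against 4296, 4919 and 5161 in the WT libraries. It averaged 134 ± 37 CPM in KO and 76.3 ± 7.2 in WT (mean ± SD, 3 libraries each), and the groups did not overlap in CPM, as for 96.2% of the genes tested. Its log2 change of 0.40 (SE 0.18) did not pass the threshold (edgeR adjusted p = 0.063). Direction and call depended on the scaling, with -0.16 under median-ratio scaling and 0.80 with library totals alone (edgeR adjusted p = 0.26 and 0.0060). Without KO replicate 1 the change was 0.56 and called (edgeR adjusted p = 0.013). WTAP and VIRMA differed in how they stood to each other within a library, which no scaling touches: the ratio of their FPKM was 10.9, 9.02 and 7.83 in KO, against 2.49, 2.48 and 2.29 in WT. These did not overlap (exact two-sided permutation p = 0.1, the smallest that 3 against 3 allows).

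The readers hold the m6A base in a pocket of their YTH domain. YTHDF2, which brings marked RNA to the CCR4-NOT deadenylase, had 924, 985 and 989 counts in KO, against 7886, 7722 and 7750 in the WT libraries. The gene (ENSG00000198492) lies on chromosome 1, 28736621 to 28769775, plus strand. In CPM it had 1141, 1141 and 1363 in KO, against 127, 120 and 125 in WT, so that all KO libraries were far above WT. Its means of 1215 ± 128 CPM in KO and 124 ± 3.6 in WT (mean ± SD, 3 libraries each) gave a 9.79-fold increase in CPM. With TMM factors its log2 change was smaller, at 2.90 ± 0.10 (SE, adjusted p = 4.8e-06 in edgeR).

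YTHDF3, a cytoplasmic reader that acts with the other YTHDF proteins, had the largest increase of the 10 genes. YTHDF3 (ENSG00000185728, chromosome 8, 63168553 to 63212786, plus strand) showed 1081, 1005 and 931 counts in KO, against 4745, 5204 and 4893 in the WT libraries. Its CPM was 1335, 1165 and 1283 in KO, against 76.3, 80.9 and 79.2 in WT. The groups were separated by more than the spread of either, with means of 1261 ± 87 CPM in KO and 78.8 ± 2.3 in WT (mean ± SD, 3 libraries each), 16.0-fold higher in CPM. With TMM factors its log2 change was 3.60 ± 0.08 (SE, adjusted p = 1.1e-06 in edgeR).

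YTHDC1, the nuclear reader that takes part in splicing and export, had 430, 480 and 414 counts in KO, against 5059, 5548 and 5546 in the WT libraries. It lies on chromosome 4, 68310387 to 68350090, minus strand (ENSG00000083896). The KO libraries were close to each other at 531, 556 and 570.4 CPM, against 81.3, 86.2 and 89.8 CPM in WT, and all lay above WT. YTHDC1 averaged 553 ± 20 CPM in KO and 85.8 ± 4.2 in WT (mean ± SD, 3 libraries each), 6.44-fold higher in CPM. With TMM factors its log2 change was 2.30 ± 0.11 (SE, adjusted p = 1.2e-05 in edgeR).

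YTHDF1, the paralog described as a promoter of translation, was the reader that fell. YTHDF1 (ENSG00000149658, chromosome 20, 63195429 to 63216139, minus strand) showed 0, 0 and 7 counts in KO, against 5107, 4920 and 4517 in the WT libraries. At its WT share, a KO library would have held 56.1 to 66.6 counts. Its means were 3.21 ± 5.6 CPM in KO and 77.2 ± 4.5 in WT (mean ± SD, 3 libraries each), 24.0-fold lower (edgeR adjusted p = 7.3e-05), and it was at 0 in KO without KO replicate 3. YTHDF1 and YTHDF3 thus had nearly the same CPM in WT, at 77.2 and 78.8, and lay on opposite sides of WT in the KO libraries. Of 2800 tested genes with a WT CPM within 1.5 times of that of YTHDF1, 68.8% were at 0 in all KO libraries.

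Shares within the YTHDF family are free of library scaling. YTHDF1 made up 0%, 0% and 0.458% of the summed FPKM of YTHDF1, YTHDF2 and YTHDF3 in KO, against 35.6%, 34.5% and 32.9% in the WT libraries. YTHDF2 made up 58.6%, 61.8% and 63.4% in KO, against 47.2%, 46.5% and 48.6% in WT. YTHDF3 made up 41.4%, 38.2% and 36.1% in KO, against 17.2%, 19.0% and 18.5% in WT. For each of the 3 genes KO and WT libraries were apart, with an exact permutation p of 0.1 (two-sided), the smallest possible for 3 against 3. The size for YTHDF2 depended on the length scaling, with a share 13.8 percentage points higher in KO by FPKM and 4.67 points higher by counts. The higher share of YTHDF2 came with the near absence of YTHDF1. With YTHDF1 left out, the share of YTHDF2 was lower in KO, with YTHDF3 at 0.707, 0.618 and 0.569 of the FPKM of YTHDF2 in KO, against 0.364, 0.408 and 0.382 in WT.

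**Figure D2:**
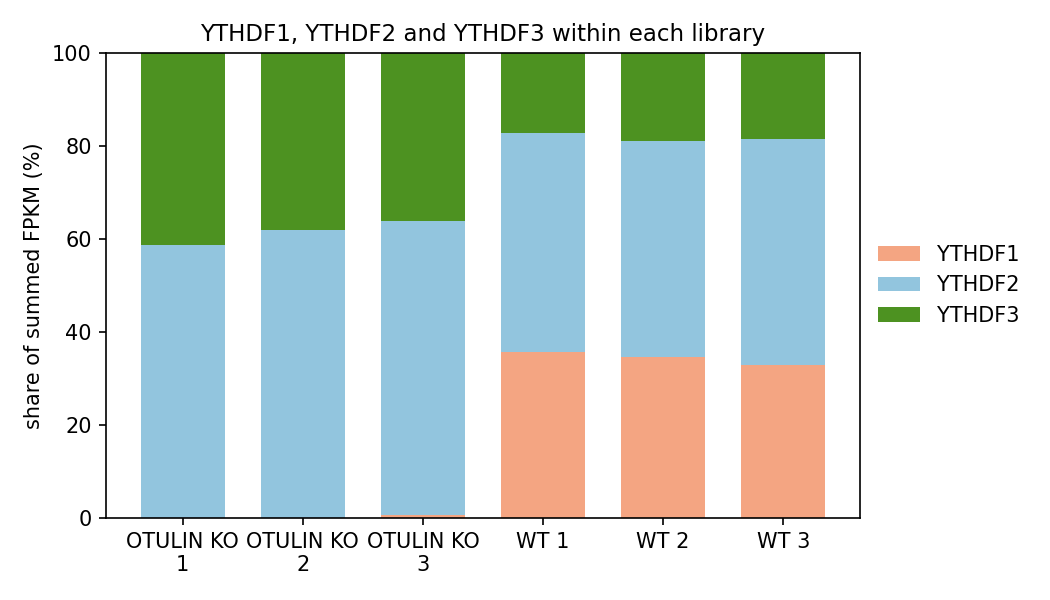
Share of each YTHDF gene in the summed FPKM of YTHDF1, YTHDF2 and YTHDF3, in percent, for each OTULIN KO library (left) and each WT library (right). YTHDF1 takes 32.9% to 35.6% of each WT bar and at most 0.458% of a KO bar.

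Both erasers were lower. ALKBH5, a nuclear dioxygenase that removes m6A from messenger RNA, had 8, 0 and 0 counts in KO, against 6316, 6240 and 5884 in the WT libraries (ENSG00000091542, chromosome 17, 18183078 to 18209954, plus strand). Its means were 3.29 ± 5.7 CPM in KO and 97.9 ± 3.2 in WT (mean ± SD, 3 libraries each), 29.7-fold lower (edgeR adjusted p = 5.2e-05), and without KO replicate 1 it was at 0 in KO. FTO, a related dioxygenase first known from the genetics of body weight, had 0, 3 and 0 counts in KO, against 3212, 3577 and 3426 in the WT libraries (ENSG00000140718, chromosome 16, 53701692 to 54158512, plus strand). Its means were 1.16 ± 2.0 CPM in KO and 54.2 ± 2.2 in WT (mean ± SD, 3 libraries each). On pooled counts FTO was 43.4-fold lower, with an exact 95% counting interval from 14.8 to 210.3 (edgeR adjusted p = 2.3e-05), and it was at 0 in KO without KO replicate 2. At their WT shares, a KO library would have held 71.1 to 84.5 counts of ALKBH5 and 39.4 to 46.8 of FTO. For both genes, most tested genes of like WT level were at 0 in all KO libraries, 64.1% of 2383 for ALKBH5 and 73.2% of 3172 for FTO.

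Summed by role, the writers took 857 ± 147 CPM in KO and 324 ± 21 in WT, the readers 3032 ± 183 CPM in KO and 366 ± 2.0 in WT, and the erasers 4.45 ± 5.0 CPM in KO and 152 ± 1.2 in WT (mean ± SD, 3 libraries each). The writer sum in KO was almost all WTAP and VIRMA, with the catalytic pair adding 0 to 22.0 CPM.

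Scaling moved the size of the 4 called increases but not their direction. The median log2 change of the 1496 tested genes that reached 30 counts in the KO libraries together stood at 0.57 under TMM, at 0.96 when libraries were scaled by their totals and at 0.01 under median-ratio scaling. Median-ratio scaling centres the genes counted in every library, so the value of 0.01 is largely set by the method. Under median-ratio scaling the log2 change was 3.05 (SE 0.10) for YTHDF3, 2.33 (SE 0.08) for YTHDF2, 1.75 (SE 0.08) for WTAP and 1.74 (SE 0.10) for YTHDC1. With library totals alone it was 4.0, 3.29, 2.71 and 2.69 for the same genes. All 4 were called higher in each of 15 alternatives.

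**Figure D3:**
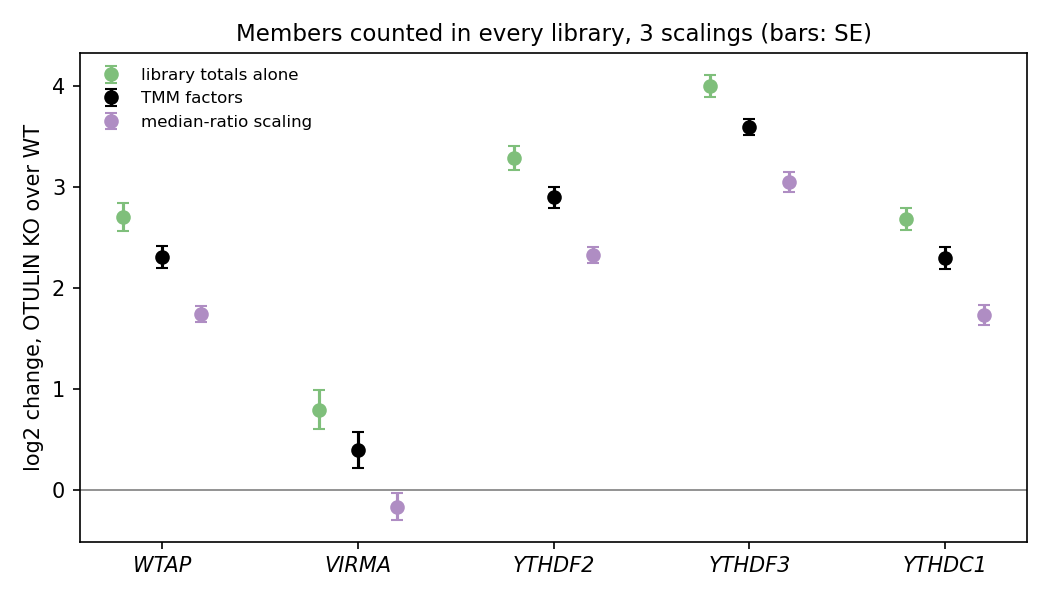
Log2 change of OTULIN KO over WT, with its SE, under 3 ways of scaling the libraries, for the 5 genes with counts in all 6 libraries. WTAP, YTHDF2, YTHDF3 and YTHDC1 stay at or above 1.74 under each, and VIRMA runs from -0.16 to 0.80.

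WT levels of the 10 genes could be ordered, since each library held 1785 or more counts of each. In deposited FPKM (SD, n = 3) YTHDF2 stood first at 30.5 ± 0.89, followed by ALKBH5 at 24.9 ± 0.85, YTHDF1 at 22.1 ± 1.3 and METTL3 at 16.4 ± 0.86. WTAP at 15.7 ± 0.90 came next, then YTHDF3 at 11.7 ± 0.34, YTHDC1 at 11.2 ± 0.54, VIRMA at 6.49 ± 0.61, METTL14 at 4.34 ± 0.44 and FTO at 2.32 ± 0.095. Ranges over the 3 libraries overlapped between METTL3 and WTAP and between YTHDF3 and YTHDC1, so those neighbours were not separated. The other neighbours did not overlap. YTHDF2 exceeded 89.3% of the genes tested in WT FPKM and FTO 8.35%.

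The order depended on the length by which the counts were divided. CPM divided by FPKM gave an implied length for each gene, and it followed the union of all GENCODE v29 exons of the gene, at 1.05 to 1.23 times its size. For FTO this union is 21.38 kb, which is 7.40 times the 2.89 kb of its transcript with the longest coding sequence. For METTL3 it is 2.92 times and for YTHDF1 1.00 times. Per kilobase of that coding transcript, METTL3 came first in WT at 52.2 ± 2.8 CPM per kb, YTHDF2 second at 42.4 ± 1.2, and FTO eighth at 18.8 ± 0.78, above VIRMA and METTL14. The ratio of METTL3 to METTL14 in WT was 3.81 ± 0.28 in FPKM and 3.26 ± 0.24 in CPM. That of ALKBH5 to FTO was 10.8 ± 0.81 in FPKM and only 1.81 ± 0.14 in CPM, where no length enters.

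**Figure D4:**
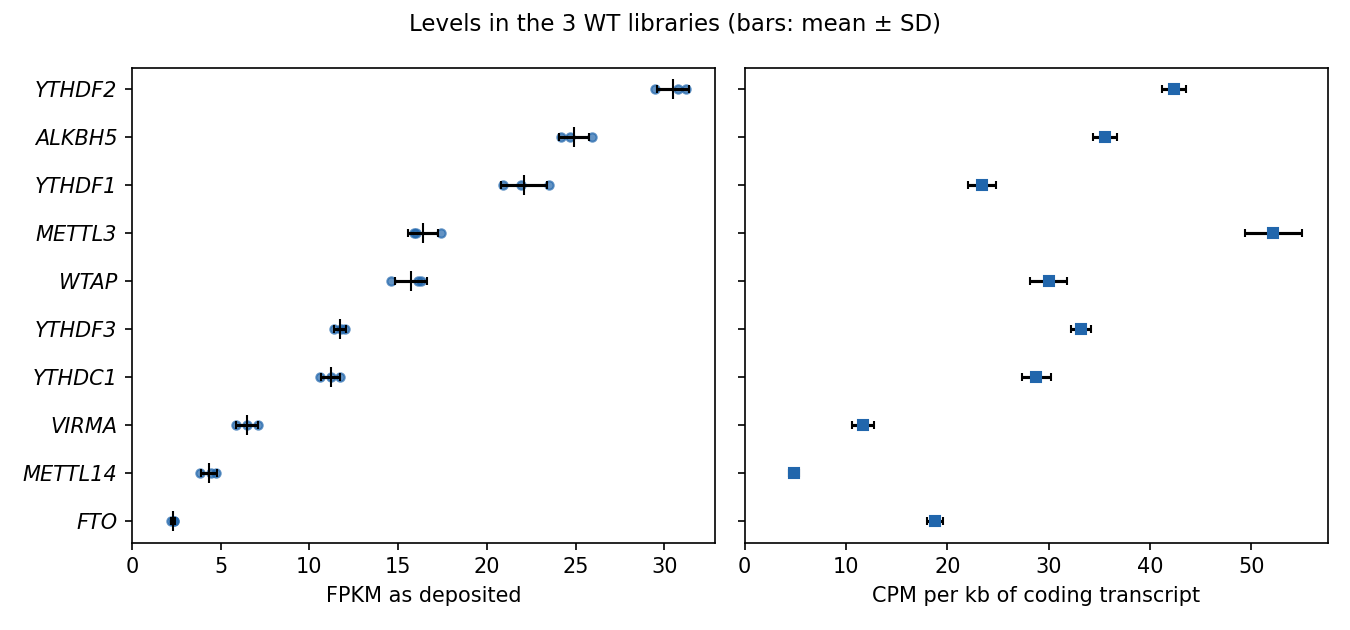
Levels of the 10 genes in the 3 WT libraries, as deposited FPKM (left; points are libraries) and as CPM per kilobase of the transcript with the longest coding sequence (right); bars are mean ± SD. METTL3 moves to 52.2 and FTO to 18.8 CPM per kb in the right panel.

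In FPKM of the KO libraries the order was YTHDF2 at 292 ± 33, YTHDF3 at 183 ± 13, WTAP at 99.9 ± 15, YTHDC1 at 70.2 ± 2.9 and VIRMA at 11.1 ± 3.2 (SD, n = 3), with no overlap between neighbours among these 5. The order of YTHDF2 and YTHDF3 depended on length here too. In CPM, YTHDF3 averaged 1261 ± 87 and YTHDF2 1215 ± 128 in KO, and their ranges overlapped. The other 5 averaged at most 0.963 FPKM there, and their order rests on counts of 16 or fewer.

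Processed copies of WTAP and YTHDF2 had far more reads relative to their parents in the KO libraries. Such copies arise when a messenger RNA is copied back into the genome, and near-identical sequence lets reads be placed at either site. A search of all GENCODE v29 transcripts with the 10 coding sequences found 2 copies of this kind at 90% identity or more over 100 or more bases. YTHDF2P1 (ENSG00000270503, hg38 chromosome 14, 39215065 to 39216335, plus strand) matches bases 466 to 1740 of the YTHDF2 coding sequence with 26 mismatches and 97.6% identity. ENSG00000232702 (chromosome 6, 51410081 to 51410537, minus strand), a processed pseudogene in that annotation, matches bases 1 to 452 of the WTAP coding sequence with 8 mismatches and 98.0% identity. Stretches of both pairs are shown because they bear on how surely a read belongs to the parent. They run 5′ to 3′ on the parent's coding strand, from base 980 to 1219 of the YTHDF2 and 142 to 321 of the WTAP coding sequence, and capitals mark the bases that differ within a pair.
YTHDF2: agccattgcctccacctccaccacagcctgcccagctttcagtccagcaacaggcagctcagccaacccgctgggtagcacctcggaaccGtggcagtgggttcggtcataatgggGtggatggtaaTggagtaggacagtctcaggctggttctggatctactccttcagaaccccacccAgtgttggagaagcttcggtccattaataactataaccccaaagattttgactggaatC
YTHDF2P1: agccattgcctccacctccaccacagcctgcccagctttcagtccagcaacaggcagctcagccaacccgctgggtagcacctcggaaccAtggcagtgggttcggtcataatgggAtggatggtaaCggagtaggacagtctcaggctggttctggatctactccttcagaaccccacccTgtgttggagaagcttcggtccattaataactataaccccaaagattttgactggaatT
WTAP: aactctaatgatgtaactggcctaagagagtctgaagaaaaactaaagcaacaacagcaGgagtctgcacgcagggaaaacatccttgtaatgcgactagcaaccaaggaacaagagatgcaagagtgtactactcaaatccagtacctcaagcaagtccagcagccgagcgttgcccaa
ENSG00000232702: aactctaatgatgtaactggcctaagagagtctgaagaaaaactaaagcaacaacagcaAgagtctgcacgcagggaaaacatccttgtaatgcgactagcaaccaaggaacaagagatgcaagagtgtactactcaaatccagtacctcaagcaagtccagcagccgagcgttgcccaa
The YTHDF2 pair differs at 5 of 240 bases here and shares an unbroken run of 149 bases in the whole match; the WTAP pair differs at 1 of 180, and its longest shared run is 251 bases.

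YTHDF2P1 had 42, 30 and 34 counts in KO, against 4, 2 and 8 in the WT libraries. The copy of WTAP had 70, 57 and 61 counts in KO, against 16, 11 and 11 in the WT libraries. Both thus had more raw counts in the shallow KO libraries than in WT. Per 100 counts of YTHDF2, its copy had 4.55, 3.05 and 3.44 in KO, against 0.0507, 0.0259 and 0.103 in WT. Per 100 counts of WTAP, its copy had 12.3, 10.6 and 10.2 in KO, against 0.251, 0.152 and 0.156 in WT. The groups did not overlap in either (exact two-sided permutation p = 0.1, the smallest possible), and the ratio of means was 61.3 and 59.2. Per length the copies weighed more: the copy of WTAP averaged 154 ± 22 FPKM in KO and 0.388 ± 0.11 in WT, beside 99.9 ± 15 FPKM in KO and 15.7 ± 0.90 in WT for WTAP itself (SD, n = 3 each). YTHDF2P1 averaged 31.2 ± 6.2 FPKM in KO and 0.051 ± 0.037 in WT, below YTHDF2 in both. The difference between KO and WT per 100 of the parent was 152 in FPKM and 10.9 in counts for WTAP, and 10.5 in FPKM and 3.62 in counts for YTHDF2. The part of read placement in these ratios was not tested. YTHDF3 and YTHDC1, which were higher too, and VIRMA had no such copy in the search.

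**Figure D5:**
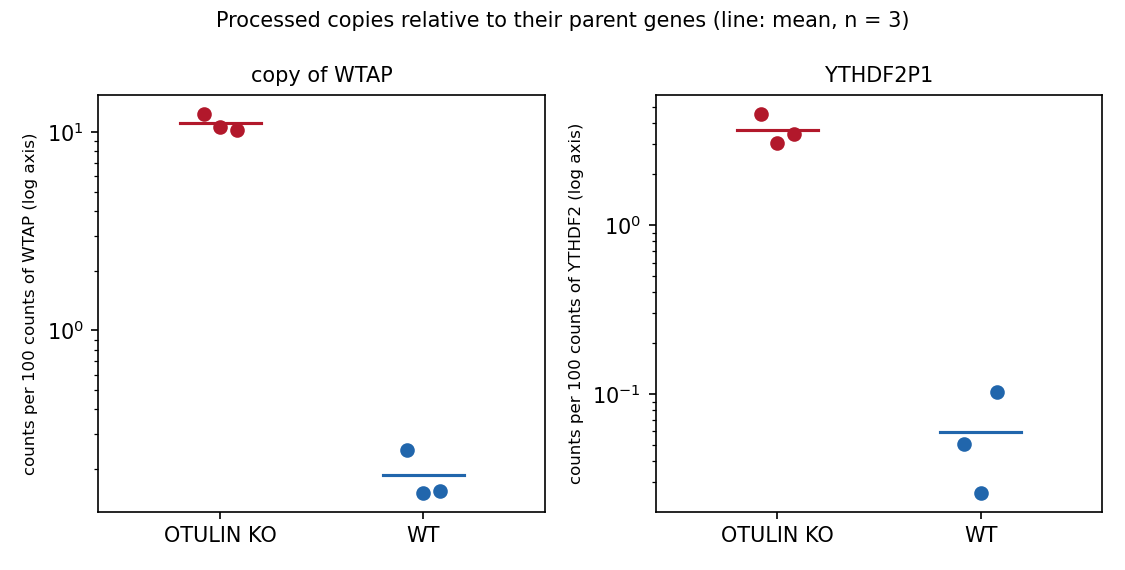
Counts of the processed copy per 100 counts of its parent gene, on log axes, for WTAP (left) and YTHDF2 (right); points are libraries, OTULIN KO left of WT, and lines are means. The KO libraries lie at 10.2 to 12.3 for WTAP and 3.05 to 4.55 for YTHDF2, and no WT library exceeds 0.251.

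Other rows near the members or named after them held few reads, apart from TOX4. The divergent transcripts METTL14-DT, VIRMA-DT and YTHDF3-DT, read from the opposite strand beside the start of their namesakes, were at 0 in KO and had 26 to 67, 19 to 45 and 9 to 23 counts in WT. At these levels, a KO library would have held 0.192 to 0.660 counts, so no change was detectable at this depth. FTOP1, a pseudogene of FTO, was at 0 in KO and had 7, 0 and 0 counts in WT. ENSG00000266677, antisense to ALKBH5, was at 0 in KO and had 0, 0 and 5 counts in WT. TOX4, which overlaps METTL3 on the opposite strand, was at 0 in KO and at 67.9 ± 1.5 CPM in WT (SD, n = 3), at least 54.3-fold lower. Strandedness of counting is not given in the sources used here, so reads in the overlap cannot be assigned.

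The members with counts in every KO library had coding sequences of 41.9% to 48.3% GC (VIRMA 41.9%, YTHDC1 44.2%, YTHDF3 44.4%, WTAP 46.8%, YTHDF2 48.3%). The other members ranged wider, with METTL14 at 42.5%, FTO at 48.3%, METTL3 at 50.4%, YTHDF1 at 56.3% and ALKBH5 at 63.3%. The ranges overlap, and these values are a description only.

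By Euclidean distance of log2(FPKM + 1) over the 6 libraries, the genes nearest to YTHDF2 were MYL6 (distance 0.18), a myosin light chain, and the helicase gene DHX15 (0.28). Nearest to YTHDF3 were AMD1 (0.25), an enzyme of polyamine synthesis, and RC3H2 (0.26), which encodes an RNA-binding ubiquitin ligase. MSL1 (0.22) and the RNA-binding gene CELF1 (0.34) were nearest to WTAP. SMAP1 (0.25) and ENSG00000285976 (0.30) were nearest to YTHDC1, and RHOT1 (0.21), of mitochondrial transport, and CHUK (0.31), a kinase of the NF-kB pathway, to VIRMA. With 2 groups far apart, a small distance says mainly that a gene has a like level in each group.

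Counts of calls in the lists below stand beside 7.63% higher, 88.0% lower and 71.3% at 0 in all KO libraries over all genes tested. Of 9 accessory writers and other m6A methyltransferases 2 were higher (22.2%) and 7 lower (77.8%), all 7 at 0 in KO, near the background, with a median log2 change of -13.11 (-4.79 with genes at 0 set to the limit of 3 counts). CBLL1, a ubiquitin ligase of the complex, reached 206 ± 49 CPM in KO and 68.6 ± 0.99 in WT, 3.01-fold higher in CPM (mean ± SD, 3 libraries each). With TMM factors its log2 change was 1.21 (SE 0.21, edgeR adjusted p = 0.0012). RBM15, which recruits the complex to its targets, reached 24.4 ± 9.1 CPM in KO and 11.7 ± 0.48 in WT (mean ± SD, 3 libraries each; log2 change 0.66, SE 0.21, edgeR adjusted p = 0.020). Its call was lost in 6 of 14 alternatives, among them without KO replicate 1 (log2 change 0.39), without WT replicate 1 (0.63) and with median-ratio scaling (0.10, edgeR adjusted p = 0.67), and adjusted p ran to 0.68. Its paralog RBM15B was at 0 in KO and 168 ± 8.4 CPM in WT, at least 134-fold lower. TRMT112, a cofactor of METTL5 among other methyltransferases, was at least 119-fold lower.

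Other readers were divided, as the YTH family was. Of 9 listed, IGF2BP1 and IGF2BP2 did not pass the filter, and of 7 tested 3 were higher (42.9%, against 7.63% of all genes tested) and 4 lower (57.1%, against 88.0%), with a median log2 change of -0.50. That median is the value of HNRNPC, which was called lower (edgeR adjusted p = 0.0016). Its groups overlapped, at 521 ± 77 CPM in KO and 558 ± 18 in WT (mean ± SD, 3 libraries each). With library totals alone and with both limma fits, 3 of these readers were called lower. FMR1, the fragile X protein gene, had 1160, 1144 and 1048 counts in KO, against 2869, 3371 and 3317 in WT, and was 27.6-fold higher at 1401 ± 65 CPM in KO and 50.7 ± 4.1 in WT (mean ± SD, 3 libraries each). HNRNPA2B1, a nuclear RNA-binding protein proposed as a reader, reached 15915 ± 2342 CPM in KO and 1702 ± 35 in WT (mean ± SD, 3 libraries each), 9.35-fold higher. YTHDC2, the YTH protein with a helicase domain, and IGF2BP3, which stabilises bound RNA, had no KO count, and lay at least 41.5-fold (YTHDC2) and 71.5-fold (IGF2BP3) below WT.

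Of 10 partners of the readers 5 were higher (50%, against 7.63% of all genes tested), 4 lower (40.0%, against 88.0%) and 1 was not called, with a median log2 change of 0.19. These values are under TMM factors. With median-ratio scaling and with DESeq2, 3 partners were called higher. CNOT2, a subunit of the deadenylase that YTHDF2 recruits, reached 2551 ± 421 CPM in KO and 74.8 ± 5.4 in WT (mean ± SD, 3 libraries each), 34.1-fold higher. SRSF10, a splicing factor linked to YTHDC1, was 13.3-fold higher, at 3632 ± 419 CPM in KO and 273 ± 22 in WT. The deadenylase catalytic subunits CNOT7 and CNOT8 had no KO count, and lay at least 105-fold (CNOT7) and 73.2-fold (CNOT8) below WT.

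All 7 other AlkB dioxygenases were lower, against 88.0% of all genes tested, and 6 of them (85.7%, against 71.3%) were at 0 in KO, so that these counts lie near the background, with ALKBH2, which repairs DNA, at least 26.9-fold and ALKBH4 at least 17.3-fold lower (median log2 change -12.27, or -4.02 with genes at 0 set to that limit). Of 7 genes that supply or recycle S-adenosylmethionine, the methyl donor, 2 were higher (28.6%, against 7.63%) and 5 lower (71.4%, against 88.0%; median -12.39, or -4.24 at that limit). MAT2A, the synthetase of the donor, reached 1934 ± 162 CPM in KO and 571 ± 28 in WT (mean ± SD, 3 libraries each), 3.39-fold higher. AHCYL1, a relative of the enzyme that clears the spent donor, was 5.55-fold higher, at 478 ± 77 CPM in KO and 86.2 ± 4.9 in WT. MAT2B, the regulatory partner of MAT2A, and MTR, methionine synthase, were at least 60.4-fold and 99.4-fold lower. For the called genes named from these lists, other than CBLL1, RBM15 and HNRNPC with values given above, the edgeR adjusted p was at most 8.4e-05.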

How the data were processed

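Gene counts and FPKM for 32862 genes in 3 OTULIN KO and 3 WT libraries were used as the authors deposited them, in columns named counts and FPKM per the file headers. Genome build hg38 and the tools StringTie 1.3.4d, HISAT2 2.0.4, DESeq2 and cutadapt 1.9 are listed, without roles, per the submitters' processing notes. Strandedness and annotation release: not given in the sources used here. In every library more genes were listed with 4 counts than with 3 or with 5, so a count need not be 1 independent fragment. The interval for FTO and the limit of 3 counts treat counts as independent fragments. The true interval may thus be wider, and the folds given as at least a value may be smaller. Neither covers the spread between libraries.

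The 10820 genes whose mean reached 1 FPKM were tested on counts with edgeR 4.0.16 (R 4.3.3, quasi-likelihood, TMM factors, genotype only), with Benjamini-Hochberg adjustment over all of them at 0.05. CPM are counts over the library's total, times 1000000. The scripts were tested on simulated data. For edgeR these had the WT composition in both groups and few changed genes, so the test does not cover the composition of the KO libraries. Single ratios were tested by exact permutation (scipy 1.17.1). Alternatives were no filter or 5 FPKM, median-ratio scaling, library totals, DESeq2 1.42.0, limma 3.58.1 on log2(FPKM + 1) or log2(FPKM + 0.1), a replicate block and leaving out each library. Added after seeing the data were leaving out 4 ribosomal RNA loci, levels per kilobase of coding transcript, the copies with their alternatives (search by blastn 2.17.0), and the YTHDF2 share without YTHDF1. Sequences and lengths are from GENCODE v29 (GRCh38).

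Named genes are the 10 members, OTULIN, up to 2 higher and 2 lower genes of largest log2 change per list, and the 2 genes nearest to each member counted in all 6 libraries. IGF2BP1, IGF2BP2, HNRNPC, the copies and neighbouring transcripts fall outside that rule. Members and lists were chosen with earlier results of these data known. Replicate numbers did not pair the samples: correlations of same-numbered deviations were 0.012, -0.007 and 0.029. Some adrenergic markers, and the sum of that list, are not reported here.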

Additional observations from a re-analysis of the deposited data

How the results depend on the processing

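Of 397 alternative values, 357 kept their direction and their side of the threshold, or stayed within the tolerance for counts. WTAP, YTHDF2, YTHDF3 and YTHDC1 were called higher in all 15 alternatives. VIRMA reversed to -0.16 with median-ratio scaling and to -0.16 with DESeq2 (adjusted p = 0.26 and 0.23), and was called with library totals (0.80), limma on log2(FPKM + 1) (0.66) and limma on log2(FPKM + 0.1) (0.73). METTL14 missed the threshold with DESeq2 (-3.26) and limma on log2(FPKM + 0.1) (-3.83). The YTHDF2 share reversed to -10.9 percentage points with YTHDF1 left out, as that construction allows. In counts it was 4.67 points, against 13.8 in FPKM. With at least 5 FPKM fewer genes were tested, and 3851 genes, 3 members, 4 accessory writers, 2 other readers, 2 AlkB genes and 1 S-adenosylmethionine gene were lower. METTL14 and FTO could not be fitted there. Accessory writers called higher were 1 without a filter, at 5 FPKM, with median-ratio scaling and with DESeq2, and reader partners 3 under the last 2 of these. Of the 10 WT ranks, 3 were kept in CPM and 1 per kilobase of coding transcript. Where no cause is given, the cause was not tested.

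The replicate block, for numbers that did not pair the samples, left 289 genes lower and 452 higher, and 0 members lower, 0 in each list lower, 0 accessory writers higher and 3 partners higher. Log2 changes under the block were -14.71 for METTL3, -4.81 for METTL14, -6.31 for YTHDF1, -6.53 for FTO and -6.38 for ALKBH5 (edgeR adjusted p = 0.088, 0.13, 0.094, 0.087 and 0.092). METTL3 had no KO count, so the size of its change is set by the fit and not measured.

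Without each library in turn, members lower numbered 4 to 5 and higher 4 to 5, accessory writers higher 1 to 2, and genes lower 8737 to 10010 and higher 795 to 845. VIRMA ran from 0.24 to 0.56, METTL14 from -13.27 to -2.04, YTHDF1 from -14.52 to -4.49, FTO from -14.01 to -5.20 and ALKBH5 from -14.86 to -4.68. The lowest values of METTL14, YTHDF1, FTO and ALKBH5 come from fits with no KO count of the gene left. Their size is set by the fit and is not a measured change. FTO could not be fitted without each WT replicate, where its mean fell under 1 FPKM. KO depth, 3.48 to 4.13 CPM for 3 counts in a library, limits what low genes can show.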
